A study of Mus musculus with 7 samples.

Results

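GIMAPs (GTPases of immunity-associated proteins) are a vertebrate family of guanine nucleotide-binding proteins that are made mainly in lymphocytes and their precursors and act at internal membranes. In mice their genes lie side by side on chromosome 6, and loss of single members lowers the survival or numbers of lymphocytes. Gimap5 is also known for its part in keeping hematopoietic stem cells (HSCs) and lymphocytes alive. The 8 genes described here, Gimap1 and Gimap3 to Gimap9, were taken by symbol from a table of 48440 genes, and all 8 were found and tested. Fewer cells that express a gene and less of its RNA per cell cannot be told apart in bulk RNA, and this holds for every level given here.

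LSK cells (lineage-negative, Sca1+, cKit+) are the fraction of bone marrow (BM) in which HSCs and multipotent progenitors are found. They were sorted from lethally irradiated C57BL/6 recipients (9.5 Gy in 2 doses given 3 h apart) 77 days after transplantation of unfractionated BM. The donor BM was wild-type in 4 libraries and carried a constitutive endonuclease-mediated PROSER1 KO in 3, and recipients of both kinds of BM were irradiated alike. The constitutive KO affects every donor cell, so that a difference is not tied to LSK cells alone, and a separation of donor cells from remaining recipient cells is not given in the sources used here. Ages and whether each library came from 1 mouse were not given in the sources used here, so that p-values measure the spread between these libraries. The question of the comparison was how loss of PROSER1, a protein that binds TET enzymes, changes RNA levels in LSK cells.

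Each library held 33143619 to 45140743 read pairs on genes, and the deposited values are read pairs per gene divided by 1 size factor per library ("normalized counts"). At these depths 3 read pairs, the limit that a count of 0 allows, equal 2.54 to 3.48 normalized counts, which covers counting error only. Proser1 itself, the targeted gene, was not lower in the libraries labelled PROSER1 KO, with normalized counts of 2338 to 2464. Wild-type libraries held 2019.4 to 2153 (log2 fold change 0.19, limma unadjusted p = 0.003, adjusted p = 0.204). All KO values of Proser1 thus lay above all wild-type values, as they did for 5.17% of the genes tested. A count over the whole gene does not show which exons were read, so that every direction given here rests on the labels. Markers of the LSK gate were high in all 7 libraries, with normalized counts of 25535 to 32357 for Kit and 3961 to 6822 for Ly6a, which encodes Sca1. RNA of lymphoid cells was present as well. Ighm, the immunoglobulin heavy chain of B cells and plasma cells, reached 687394 to 1890105 normalized counts. PROSER1 KO replicate 1 stood apart in the 3 CD3 genes of the T cell receptor complex, with 697 normalized counts of Cd3g against 20.9 to 52.9 in the other 6 libraries. Cd3e was 197 there and 5.75 to 24 elsewhere, and Cd3d was 106 there and 1.8 to 21.1 elsewhere. The receptor beta chain genes were highest there too. Trbc1 was 722 there and 173 to 405 elsewhere, and Trbc2 was 395 there and 86.4 to 250 elsewhere. The receptor alpha chain Trac, which was low in all libraries, did not set this library apart, with 25 normalized counts against 26 in wild-type replicate 1.

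The GIMAP cluster spans the 8 genes on chromosome 6 (GRCm38, GENCODE M21). Gimap8 comes first on the forward strand (48647234 to 48660875), followed by Gimap9 (48676129 to 48679114) and Gimap4 (48684549 to 48692060). Gimap6 lies on the reverse strand (48701582 to 48708225). Gimap7 (48718621 to 48724636), Gimap1 (48739054 to 48743795) and Gimap5 (48746197 to 48754210) are again on the forward strand. Gimap3 (48764464 to 48770851, reverse strand) closes the cluster beside Gimap5.

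The first motif of the GTP-binding site, the P-loop, joins the members as a family, and its codons were searched in frame in the longest annotated coding sequence of each gene as glycine, any 4 amino acids, glycine, lysine and serine or threonine. Each gene held 1 match except Gimap8, which held 3. The stretches are shown because they display how alike Gimap3 and Gimap5 are, with the glycine, lysine and serine codons in capitals and the 4 free codons in lower case, from the GENCODE M21 transcripts on the strand of the gene.
Gimap1: GGCaggactgggaccGGCAAGAGT
Gimap3: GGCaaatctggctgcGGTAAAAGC
Gimap4: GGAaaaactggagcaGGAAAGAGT
Gimap5: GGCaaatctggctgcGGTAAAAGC
Gimap6: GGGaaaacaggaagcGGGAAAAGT
Gimap7: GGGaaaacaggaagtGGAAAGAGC
Gimap8, match 1: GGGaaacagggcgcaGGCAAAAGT
Gimap8, match 2: GGGaagcgtggtgttGGGAAAAGT
Gimap8, match 3: GGAaggagtggggctGGAAAGAGT
Gimap9: GGGaagactggaaatGGGAAGAGT
Gimap3 (chr6:48765887-48765910, reverse strand) and Gimap5 (chr6:48752594-48752617, forward strand) had 0 differing bases over these 24 positions, and no other pair of stretches was identical.

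Over the annotated transcripts, Gimap3 and Gimap5 alone among the 28 pairs of members shared any run of 31 bases. Their longest identical run was 140 bases, and 13.2% of the 31-base words of Gimap3 and 8.02% of those of Gimap5 were found in the other gene. Read pairs that lie wholly within such a run cannot be assigned to 1 of the 2 genes, and how these were counted is not given in the sources used here. The levels of both genes are uncertain to that extent.

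Promoters of 300 bases (250 before and 50 after the start, RefSeq, GRCm38.p6) were at hand for all 8 genes, with 2 for Gimap8. They held 2 to 8 CpG dinucleotides against a median of 7 over 32851 promoters of the same length. The letters AGGAAG of an ETS site, searched on both strands, were found in 7 of the 9 member promoters (77.8%) and in 35.4% of all promoters. The RUNX letters TGTGGT were found in 3 of 9 (33.3%, all promoters 16.8%) and the TATA letters TATAAA in 1 (11.1%, all promoters 13.6%). The GATA letters AGATAA and the E-box letters CAGCTG were found in 0 of 9, with 11.2% and 16.3% of all promoters holding them. The promoters of the 3 members with the lowest unadjusted p-values are shown, with AGGAAG or its reverse complement in capitals.
Gimap3, chr6:48770802-48771101, reverse strand: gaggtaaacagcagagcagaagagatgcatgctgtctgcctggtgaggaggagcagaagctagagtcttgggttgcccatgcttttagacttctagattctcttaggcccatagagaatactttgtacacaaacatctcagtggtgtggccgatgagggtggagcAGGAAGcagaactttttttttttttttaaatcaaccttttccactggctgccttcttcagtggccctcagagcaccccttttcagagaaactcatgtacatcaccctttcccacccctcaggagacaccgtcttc
Gimap5, chr6:48745947-48746246, forward strand: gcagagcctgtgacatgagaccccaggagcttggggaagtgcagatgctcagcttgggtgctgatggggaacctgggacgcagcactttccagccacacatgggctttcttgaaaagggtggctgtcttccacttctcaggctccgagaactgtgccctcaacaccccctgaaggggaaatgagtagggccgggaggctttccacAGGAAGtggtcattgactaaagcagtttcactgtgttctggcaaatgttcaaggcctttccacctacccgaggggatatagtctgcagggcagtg
Gimap9, chr6:48675885-48676184, forward strand: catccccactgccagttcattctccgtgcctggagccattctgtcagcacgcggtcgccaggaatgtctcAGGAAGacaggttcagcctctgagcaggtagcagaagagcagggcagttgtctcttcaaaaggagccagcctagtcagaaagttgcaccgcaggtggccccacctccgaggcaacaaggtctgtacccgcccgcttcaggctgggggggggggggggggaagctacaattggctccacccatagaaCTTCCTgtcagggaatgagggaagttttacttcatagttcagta

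All 8 GIMAP genes were expressed in every LSK library, and their levels per exon length spanned more than 10-fold between genes. Per kb of merged exons, Gimap6 had the highest level, with 2353 ± 91.9 normalized counts per kb in wild-type (SD, n = 4), followed by Gimap1 (1204 ± 68.9), Gimap9 (1029 ± 22) and Gimap8 (733 ± 62.8). Lower down were Gimap3 (499.8 ± 144), Gimap4 (460.3 ± 90.3), Gimap5 (362 ± 26.8) and Gimap7 (202 ± 14.6). The mean level of Gimap6 per kb lay above that of 95.5% of the tested genes, and that of Gimap7 above 49%. Gimap6 is known for its part in autophagy, while Gimap7 is a small member whose GTPase is active as a dimer.

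Some steps of this order did not exceed the spread between libraries. Per kb of merged exons, Gimap6 was above Gimap1, Gimap9 above Gimap8, and Gimap5 above Gimap7, each in 7 of 7 libraries and without overlap of their ranges. Gimap1 was above Gimap9 in 6 of 7 libraries, with overlapping ranges. Gimap8 was above Gimap3, and Gimap4 above Gimap5, in 7 of 7 libraries, but their ranges over the libraries overlapped. Gimap3 was above Gimap4 in 2 of 7. In the libraries labelled PROSER1 KO, Gimap3 took the seventh place in place of the fifth, with 251 ± 83.1 normalized counts per kb (SD, n = 3), and the order of the other members did not change. Per kb of the longest transcript instead, the wild-type mean of Gimap1 was 2292, its range over the libraries overlapped that of Gimap6, and it lay above Gimap9 in 7 of 7 libraries without overlap. On that scale Gimap5 ranked above Gimap3 in wild-type, and the mean ratio of Gimap6 to Gimap7 was 7 in place of 11.7.

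**Figure D1:**
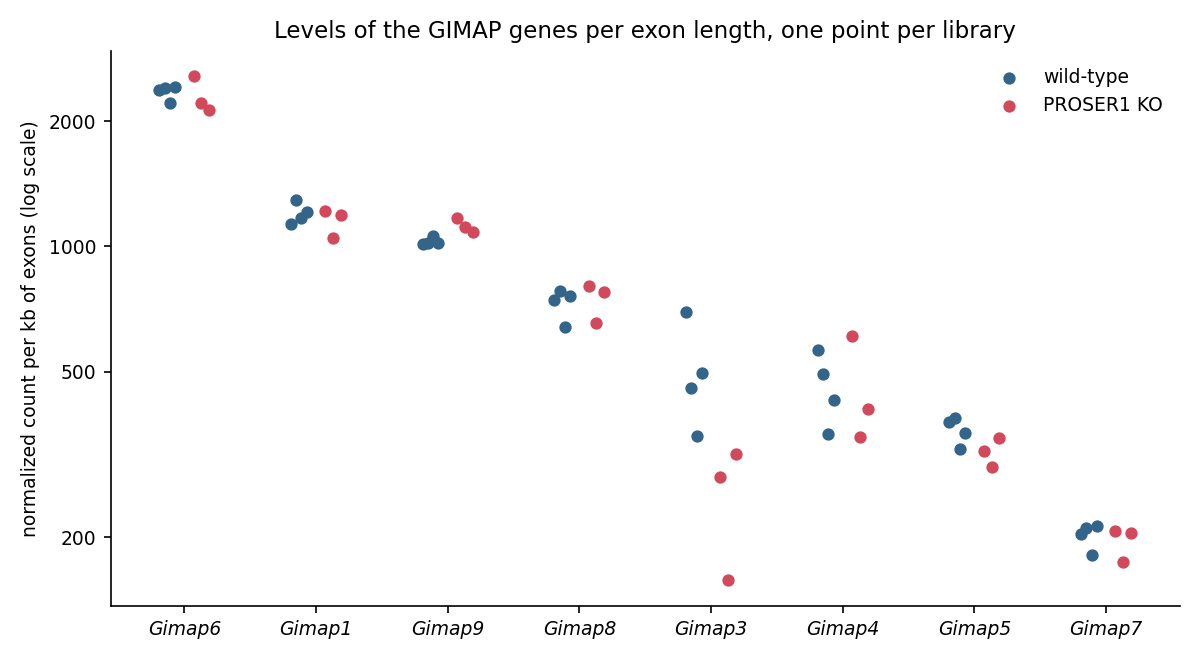
Normalized counts per kb of merged exons on a log scale for the 8 GIMAP genes, ordered by wild-type mean, with 1 point per library (blue, wild-type, n = 4; red, PROSER1 KO, n = 3). Gimap6 lies highest at 2132 to 2569 per kb and Gimap7 lowest at 174 to 213 per kb, except that the lowest single value, 158 per kb, is that of Gimap3 in PROSER1 KO replicate 2.

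No GIMAP gene passed the test between the groups. With limma on log2(normalized count + 1), 0 of 8 were called at an adjusted p under 0.05 and a fold change above 1.5, and 0.258% of the 16251 genes tested were called in either direction. edgeR also called 0 of 8 (0.253% of the genes it tested), as did DESeq2 (0.873%). At an unadjusted p under 0.05, 2 of 8 passed (9.73% of all genes tested). Fold changes were below 0 for 6 members and above 0 for 2, with a median log2 fold change of -0.04 against 0.0015 for all genes tested. For the 7 members other than Gimap3, log2 fold changes were between -0.17 and 0.12, and their 95% confidence intervals lay between changes of -28.7% and 33.5%, within 1.5-fold either way.

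**Figure D2:**
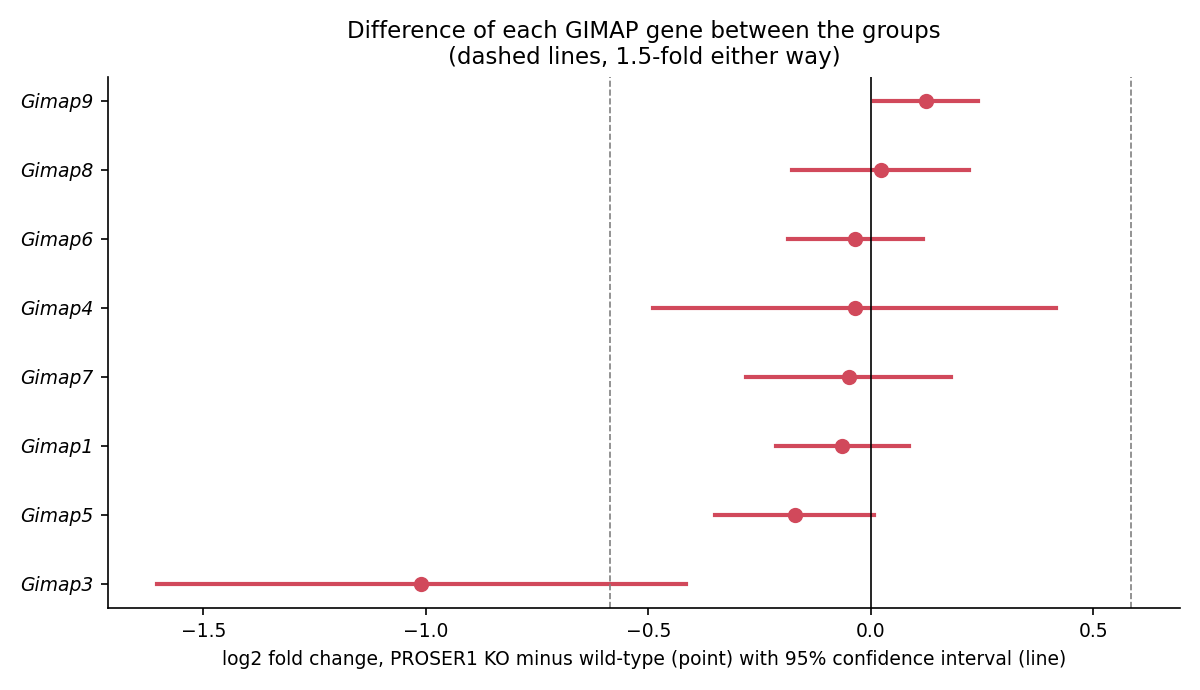
Log2 fold change of each GIMAP gene, PROSER1 KO minus wild-type (points), with the 95% confidence interval of limma (lines), n = 4 and 3 libraries. Gimap3 lies at -1.01, the other 7 lie between -0.17 and 0.12 inside the dashed lines at 1.5-fold, and no difference passed the adjusted threshold.

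Gimap3, whose product sits at membranes of the endoplasmic reticulum and mitochondria and is known for setting how variants of mitochondrial DNA are kept in leukocytes, had the largest difference of the 8. Wild-type replicates 1 to 4 gave 1791, 1178, 905 and 1278 normalized counts of it. PROSER1 KO replicates 1 to 3 gave 719, 406 and 816. All 3 libraries labelled PROSER1 KO lay below all 4 wild-type libraries, as they did for 4.83% of the genes tested. Wild-type averaged 1288 ± 371 (SD, n = 4) and PROSER1 KO 647 ± 214 (SD, n = 3). The KO level was 0.496 of wild-type with a 95% confidence interval of 0.329 to 0.75. This is a log2 fold change of -1.01 with a standard error of 0.26, and 1.3% of the tested genes had one as low or lower. The difference did not pass the adjusted threshold (unadjusted p = 0.0038, adjusted p = 0.222 in limma), and Gimap3 also had the widest spread of the members within groups.

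Other lymphoid genes had their lowest level in the same library as Gimap3, PROSER1 KO replicate 2. Ighm was 687394 normalized counts there, 947499 to 1137842 in the other KO libraries and 830464 to 1890105 in wild-type. Cd52, a surface protein of lymphocytes, was 2037 there, 2595 and 2882 in the other KO libraries and between 2978 and 3922 in wild-type (adjusted p = 0.288, log2 fold change -0.44). The part of these genes in the difference of Gimap3 was not tested. Without PROSER1 KO replicate 2 the log2 fold change of Gimap3 was -0.71.

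Gimap5, the neighbor of Gimap3 and the member best known for lymphocyte and HSC survival, differed less. It held normalized counts of 1569, 1604, 1354 and 1482 in the wild-type libraries and 1339, 1224 and 1438 in those labelled PROSER1 KO, and the groups overlapped. The log2 fold change was -0.17 (standard error 0.079, unadjusted p = 0.0585, adjusted p = 0.528 in limma). The ratio of Gimap3 to Gimap5 within a library was 0.668 to 1.14 in wild-type and 0.332 to 0.567 in PROSER1 KO, without overlap. Gimap3 alone already separated the groups, so that the ratio is not a second observation.

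Gimap9 was the 1 member whose KO libraries all lay above wild-type. Wild-type replicates 1 to 4 held 1661, 1678, 1743 and 1679 normalized counts, and PROSER1 KO replicates 1 to 3 held 1922, 1827 and 1777. Such a separation upward was found for 5.17% of the genes tested. The difference was small, at 0.12 on the log2 scale (standard error 0.052, unadjusted p = 0.0403, adjusted p = 0.48 in limma) and a 95% confidence interval from 0.47% to 18.1% higher. It was seen against a narrow spread between libraries, since 4.1% of the tested genes had a lower SD within groups.

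Gimap4, which is known to hasten the death of T cells, varied more between libraries than between groups. It was 1039, 909, 652 and 784 normalized counts in wild-type against 1119, 641 and 748 in PROSER1 KO, with a log2 fold change of -0.04 (adjusted p = 0.975) and a 95% confidence interval of the change from -28.7% to 33.5%. The highest value of each group was that of replicate 1. Most T cell genes were highest in the same 2 libraries. Of the 26 T and innate lymphoid markers, 12 had their highest value in PROSER1 KO replicate 1 and 9 in wild-type replicate 1, and none was at 0 in any library. The summed level of these markers was 10564 to 13779 in wild-type and 8501 to 14925 in PROSER1 KO. Lck, a kinase of the T cell receptor, was 2122 and 2230 in these 2 libraries and 1282 to 1642 in the other 5. The part of T cell RNA in the level of Gimap4 was not tested. Without PROSER1 KO replicate 1 the log2 fold change of Gimap4 was -0.27 (adjusted p = 0.677), and without both replicates 1 it was -0.16 (adjusted p = 0.863). Without both, Gimap3 stood at -0.94 (adjusted p = 0.511), and 0 of 8 members were called.

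**Figure D3:**
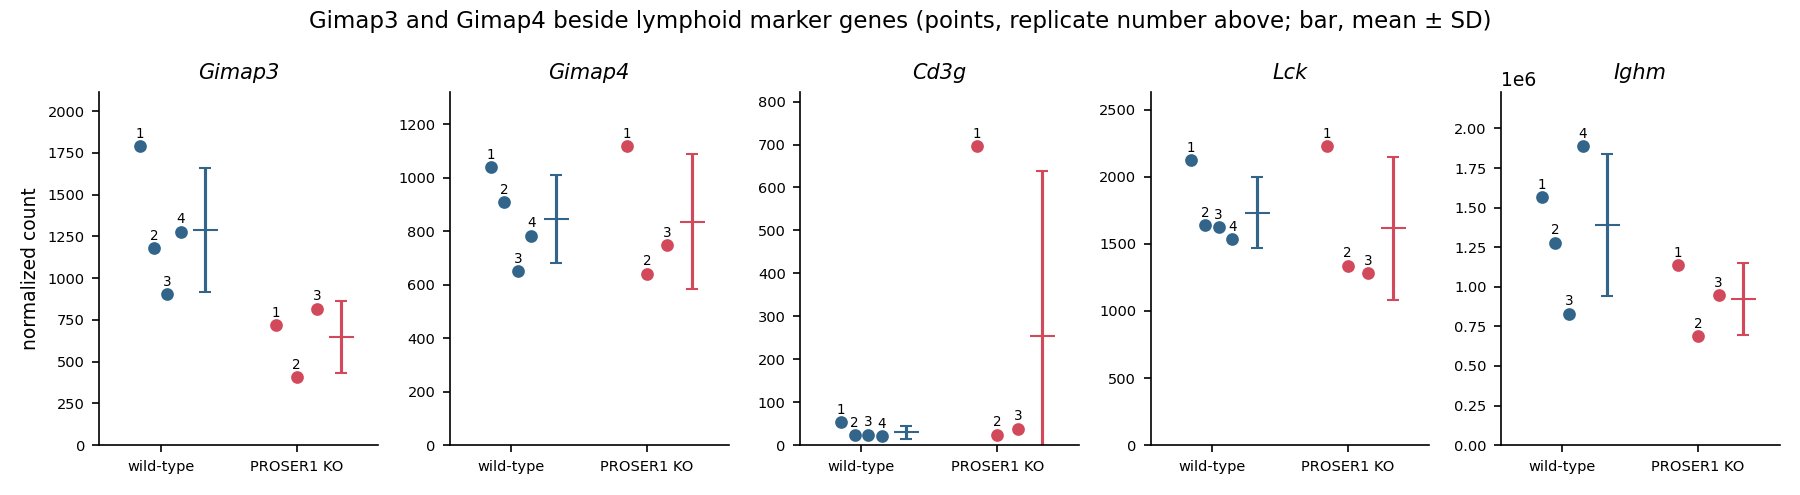
Normalized counts of Gimap3, Gimap4 and 3 lymphoid genes (Cd3g, Lck and Ighm) in each library, with replicate numbers above the points and bars for mean ± SD (n = 4 and 3), all axes from 0. Gimap4 and Lck are highest in replicate 1 of both groups, Cd3g stands at 697 in PROSER1 KO replicate 1 only, and Gimap3 and Ighm are lowest in PROSER1 KO replicate 2.

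Gimap6, the most abundant member, held 8301, 8414, 7753 and 8437 normalized counts in wild-type. PROSER1 KO replicates 1 to 3 held 8981, 7731 and 7452. The highest and the lowest library were both labelled PROSER1 KO. Its log2 fold change was -0.03 (adjusted p = 0.916), with an interval of the change from -12% to 8.41%.

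Gimap1, a Golgi-associated member that mature B and T cells need, had normalized counts of 3488, 3982, 3602 and 3724 in wild-type against 3745, 3226 and 3656 in the libraries labelled PROSER1 KO. The groups overlapped (log2 fold change -0.06, adjusted p = 0.805). Its antisense gene Gimap1os covers 36% of its exon bases, and the strand setting of the counting is not given in the sources used here, so that RNA of the 2 genes may not be told apart. Gimap1os held 366 to 468 normalized counts in wild-type and 401 to 461 in PROSER1 KO, with a log2 fold change of -0.03 (adjusted p = 0.962).

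Gimap8, the member with 3 GTP-binding motifs, held 2751, 2896, 2374 and 2821 normalized counts in wild-type against 2966, 2425 and 2876 in PROSER1 KO (log2 fold change 0.02, adjusted p = 0.962). Gimap7 held 475, 489, 421 and 495 in wild-type against 482, 405 and 477 in PROSER1 KO (log2 fold change -0.05, adjusted p = 0.923). Both genes were lowest in wild-type replicate 3 and PROSER1 KO replicate 2 of their groups.

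**Figure D4:**
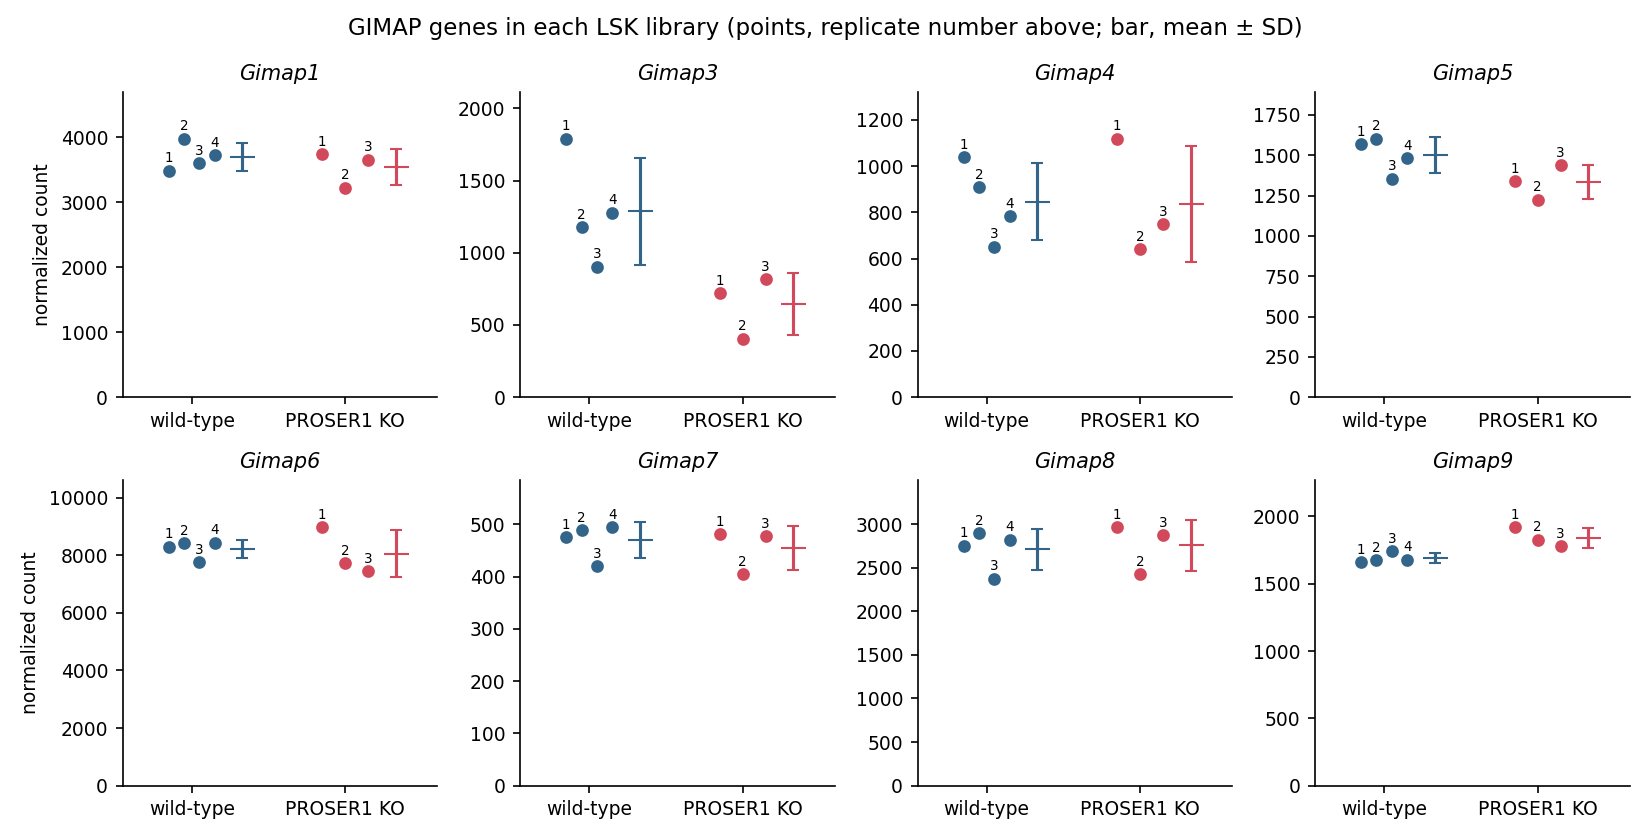
Normalized counts of the 8 GIMAP genes in each library (points, replicate number above) with mean ± SD beside them (blue, wild-type, n = 4; red, PROSER1 KO, n = 3) on axes from 0. The groups do not overlap for Gimap3 (KO 406 to 816, wild-type 905 to 1791) and Gimap9 (KO 1777 to 1922, wild-type 1661 to 1743), and they overlap for the other 6.

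Summed over the family, the 8 genes made up 0.0494% to 0.0549% of the read pairs on genes in wild-type and 0.0468% to 0.0549% in PROSER1 KO. The sum was 20431 ± 1104 normalized counts (SD, n = 4) and 19466 ± 1704 (SD, n = 3), a ratio of 0.953. Without Gimap3 the ratio was 0.983. Gimap6 alone gave 38.7% to 43.2% of the sum. Gimap3 gave 8.5%, 5.57%, 4.81% and 6.17% in wild-type against 3.38%, 2.27% and 4.24% in PROSER1 KO, without overlap. The share of Gimap3 was 6.26% ± 1.59 against 3.3% ± 0.988 (two-sided exact permutation p = 0.0571 over 35 splits, for which the smallest possible p is 0.0286, and 1 of 8 such tests). The other 7 shares had p-values from 0.114 to 0.857 in the same exact permutation test. A fall of 1 share raises the others, so that the 8 tests are not independent.

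Around the deviations from the group means, the members moved together in part. Over the 7 libraries, 24 of the 28 pairs had a Pearson r above 0, with a median of 0.60 and a range of -0.53 to 0.99. These correlations are descriptions over libraries that share a depth and a size factor for all genes. Gimap7 and Gimap8 were the most alike (r = 0.99). Gimap9 gave the 4 pairs below 0, with Gimap5, Gimap3, Gimap7 and Gimap8. The SD within groups on the log2 scale was 0.46 for Gimap3 and 0.34 for Gimap4, and 0.043 to 0.14 for the other 6, with a median of 0.13 over all genes tested.

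The genes whose deviations over the 7 libraries were most like the mean log2 level of the members were Gm18190 and B230303O12Rik (r = 0.996 each), Ccdc88b (r = 0.995), Tmem150c (r = 0.986) and Tnfaip3 (r = 0.984). Tnfaip3 encodes A20, an inhibitor of NF-kB, and Ccdc88b is a hook-related protein of immune cells. Among the most opposed were Gm10516 (r = -0.998) and Zfp706 (r = -0.996). Ccdc88b held 5790 to 6600 normalized counts in wild-type and 5394 to 6245 in PROSER1 KO, and Tnfaip3 held 1147 to 1471 and 1066 to 1473. These genes are extremes among 16251 genes over 7 libraries.

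Along the chromosome, the genes beside Gimap3 had smaller differences than Gimap3, and 0 of them were called. The readthrough gene Gm28053 shares 81, 198 and 153 exon bases with Gimap7, Gimap1 and Gimap5. It had 60.4 to 73.1 normalized counts in wild-type and 29.8 to 73 in PROSER1 KO (log2 fold change -0.50, adjusted p = 0.632), and its reads may in part belong to those genes. The noncoding gene 4833403J16Rik, which lies between Gimap5 and Gimap3, had a log2 fold change of -0.06 (adjusted p = 0.925). Gm44226 stayed below the filter with 3.61 to 11.5 normalized counts, and Gm44262 was at 0 in all 7 libraries, which allows up to 3.48 normalized counts. Outside the cluster, log2 fold changes were -0.22 for Zfp775, -0.14 for AI854703, -0.02 for Tmem176b and 0.05 for Tmem176a, with adjusted p-values of 0.581 to 0.927. Of 17 listed genes within 1 Mb of the cluster, 14 were tested and 0 were called, with log2 fold changes from -0.71 (Sspo) to 0.11.

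**Figure D5:**
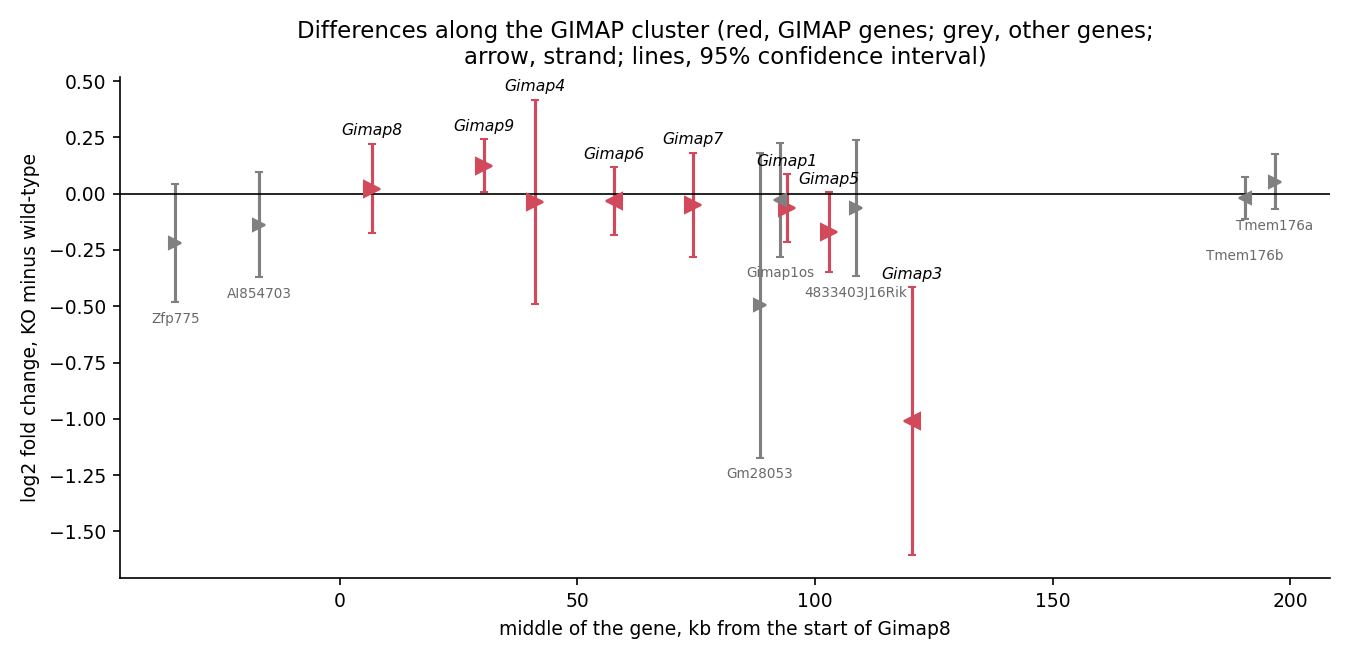
Log2 fold change (PROSER1 KO minus wild-type) of GIMAP genes (red) and of genes in or beside the cluster (grey), placed by the middle of the gene in kb from the start of Gimap8, with arrows for the strand and lines for 95% confidence intervals. Gimap3, at the end of the cluster, lies at -1.01, and the genes nearest to it, Gimap5 at -0.17 and 4833403J16Rik at -0.06, lie near 0.

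Genes of the processes in which GIMAPs take part were listed as well. Over all 13 lists, with the genes beside the cluster and the cell markers, limma called 0 of 200 tested genes. Over all genes tested, 0.258% were called. An unadjusted p under 0.05 in limma was found for 30 of the 200, against 9.73% of all genes tested. Of 16 autophagy genes, the machinery that Gimap6 joins, 10 were lower and 6 higher, from -0.18 for Atg3, a conjugating enzyme of autophagosome formation, to 0.14 for Ulk1, the kinase that starts autophagy, with a median log2 fold change of -0.01. Of 15 tested BCL2 family genes, to which Gimap3 and Gimap5 have been linked, 10 were lower and 5 higher, with a median of -0.04. They ranged from -1.03 for Bik, which held at most 32.3 normalized counts, to 0.37 for Bmf, both inducers of cell death. Mcl1 and Bcl2, which keep HSCs and lymphocytes alive, stood at 0.04 and -0.15 (adjusted p = 0.911 and 0.515).

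Among other GTPases, the septins, whose fold is close to that of GIMAPs, had 10 of 11 tested members lower with a median of -0.02, from -0.41 for Septin10 to 0.16 for Septin5. Their summed level was 48707 to 50354 normalized counts in wild-type and 47195 to 48659 in the KO-labelled libraries, without overlap. Of 19 interferon-inducible GTPases, 12 were higher and 7 lower, with a median of 0.13. Gbp3, a guanylate-binding protein of defense against microbes, passed the adjusted threshold (log2 fold change 0.47, adjusted p = 0.0116) but stayed under 1.5-fold, and Gbp11 was the lowest at -1.68 (adjusted p = 0.481). Their summed level was 23772 to 25682 normalized counts in wild-type and 26782 to 30199 in PROSER1 KO, also without overlap. For single genes, all KO values lay below all wild-type values in 4.83% of the genes tested and above them in 5.17%. No such share was computed for sums over lists, whose spread can differ from that of single genes.

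Markers of the cells that could carry GIMAP RNA gave no call in limma either. Over the T and innate lymphoid list, 16 of 25 tested genes were lower and 9 higher, with a median of -0.13, from -0.86 for Ncr1, a receptor of natural killer cells, to 1.61 for Cd3g. DESeq2 called 1 gene of this list. The plasma cell list, led by Jchain, had 11 of 11 genes lower with a median of -0.36 (sums 176679 to 440923 in wild-type and 205264 to 306611 in PROSER1 KO, from -0.49 for Prdm1 to -0.17 for Jchain). In the B-lineage list 6 of 12 were lower (sums 8052 to 18393 and 7850 to 12538), from -0.61 for Ms4a1 to 1.58 for Igll1. Of 12 lymphoid-primed progenitor genes, 7 were lower, from -0.56 for Ighm to 0.80 for Rag1. In the endothelial list 12 of 14 tested genes were higher with a median of 0.34, from -0.29 for Stab2 to 0.68 for Cldn5. Its sums did not overlap (19641 to 21461 and 22121 to 23319). Upward this held for 5.17% of single genes, a share not computed for sums. Abundant genes led the sum, among them Pecam1, Tie1 and Vwf (means 5158, 5470 and 2211 in wild-type, 5036, 5908 and 3357 in PROSER1 KO). Cdh5 and Cldn5 held at most 258 and 87.4 normalized counts and overlapped between groups, with log2 fold changes of 0.58 and 0.68. In the list 2 genes did not overlap, both higher in PROSER1 KO. Emcn held 688 to 806 normalized counts in wild-type and 859 to 1077 in PROSER1 KO (log2 fold change 0.36, limma adjusted p = 0.233). Sox18 held 65.5 to 117 and 121 to 156 (log2 fold change 0.61, limma adjusted p = 0.403). Whether the sum follows the number of endothelial cells was not tested. The LSK and HSC list had 9 of 16 genes lower with a median of -0.0046, from -0.25 for Mecom to 0.28 for Slamf1. Of 13 tested granulocyte and monocyte genes 9 were lower, from -0.45 for Ccr2 to 0.47 for Csf1r, and of 12 tested erythroid and megakaryocyte genes 4 were lower, with the lowest value of -0.40 for Hba-a1. Each of the plasma cell, B-lineage and endothelial genes had a value above 0 in all libraries. The part of these cells in the levels of the GIMAP genes was not tested.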

How the data were processed

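Directional polyA libraries of LSK cells were sequenced as read pairs. Per the labels, the authors used Trimmomatic, STAR, featureCounts and DESeq2 with mm10 (GRCm38.p6), and they deposited a signal per gene, read pairs divided by 1 size factor per library (versions are not given in the sources used here). Whole read pairs were recovered for 100% of values within 0.01. The 685 genes without a symbol, with at most 0.135% of read pairs, stayed in the tests.

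Groups follow the labels. limma 3.58.1 (R 4.3.3, eBayes with trend) was run on log2(value + 1) over 16251 genes whose mean was 10 or more, and Benjamini-Hochberg adjusted p-values under 0.05 with a fold above 1.5 were called. On this scale fold changes of low genes are understated. Alternatives were edgeR 4.0.16 and DESeq2 1.42.0 on recovered read pairs, other pseudocounts, filters, variance settings and normalizations, a replicate block, and libraries left out. Replicates of a group were not duplicates (chi-square of 27.8 to 88 per degree of freedom). In simulated data over 16263 genes limma recovered 162 of 200 changed genes (81%), with 14 false calls. The simulation gave every gene the same dispersion, and its changes were all larger than 1.5-fold and spared genes of low level. The 81% is therefore not the power of the test in the real data. Positions and transcripts are from GENCODE M21 (48058 genes matched), and the file header and the methods name other GENCODE releases.

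The members and gene lists were chosen with earlier results of these data known. Named genes were all members, genes that overlap them, the extremes of each list, the most like and most opposed genes, and Proser1. Kit, Ly6a, Lck, Cd3d, Cd3e, Trac, Trbc1, Trbc2, Cd52, Ighm, Mcl1, Bcl2 and Gbp3 were named after their values were seen. The same holds for Pecam1, Tie1, Vwf, Cdh5, Emcn, Sox18 and the other genes in and beside the cluster. Some genes that the rule names are not reported here.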

Additional observations from a re-analysis of the deposited data

Results flagged for a closer look

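In 17 groups of 4 wild-type values (each member's normalized count, each member's share of the GIMAP sum, and the sum), 1 library lay apart from the rest by Dixon's test. It was the share of Gimap9 in wild-type replicate 3, 9.27% of the GIMAP sum against 7.88% to 8.11% in the other 3, with a gap of 0.834 of the group's range, above the critical value for 4 samples. Chance alone flags about 1 in 20 groups.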

How the results depend on the processing

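0 of 8 GIMAP genes were called under every alternative run, including no fold change minimum, edgeR, DESeq2, the replicate block and each library left out. The log2 fold changes of Gimap3, Gimap5 and Gimap9 kept their sign under all 19 alternatives (Gimap3 from -1.21 to -0.71, adjusted p = 0.125 to 0.511 in limma, edgeR and DESeq2). Others, all near 0, changed sign when 1 library was left out: Gimap1 between -0.11 and 0.0023, Gimap4 between -0.27 and 0.13, Gimap6 between -0.12 and 0.019, Gimap7 between -0.10 and 0.032, and Gimap8 between -0.040 and 0.11. Without both replicates 1, chosen after seeing the data, Gimap8 was at -0.025. Over all genes, 42 were called by limma and 42 by edgeR, 17 without trend, 80 with robust variance and 165 with DESeq2. In the simulated data, where all genes had the same dispersion, 16.1% of the calls of DESeq2 were false. The share was 7.95% for limma and 7.47% for edgeR. Without 1 library 23 (without PROSER1 KO replicate 2) to 42 were called, and without both replicates 1, 13. The difference in the share of Gimap3 was -2.97 percentage points and -3.45 to -2.22 without 1 library, where the exact permutation test cannot pass 0.05. The ratio of Gimap6 to Gimap7 was 11.7, and 7.0 per kb of the longest transcript. Of the list genes, DESeq2 called 1 lower in place of 0. The causes were not tested.

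The replicate numbers are shared between groups, but same-numbered libraries did not deviate together (r = 0.023, 0.058 and -0.11). With the replicate block, 35 genes were called, 0 of 8 members among them.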
